A study of Mus musculus with 3 samples.

Results

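The 58 genes examined here build, trim and break down heparan sulfate and chondroitin sulfate proteoglycans, or make, cut and bind hyaluronan. They were taken from a list of names, drawn up with earlier results of these data known, and all 58 were found by symbol among the 39304 rows of the table. The material was glomeruli, the capillary tufts that filter blood in the kidney, of a wild type male C57BL/6 mouse aged 8 weeks, with no treatment named. Single cells were captured in a microfluidic device, their cDNA was made in separate wells, and qPCR of marker genes gave each well a cell type. The cDNA of 15 mesangial cells, which hold the capillary loops together, and 15 endothelial cells, which line them, was mixed and split into 3 aliquots that were sequenced separately. All 3 libraries belong to 1 group, so no conditions can be compared. Every SD below is over the aliquots (n = 3) and covers library construction and sequencing, not differences between mice or cells.

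Proteoglycans are proteins that carry long sulfated sugar chains. Core proteins such as syndecans and glypicans receive a short linker of sugars, polymerases extend it into heparan sulfate or chondroitin sulfate, and sulfotransferases and epimerases then write binding sites for growth factors, chemokines and antithrombin into the chain. Hyaluronan is a sugar chain without a core protein, made at the cell membrane. On glomerular endothelium these chains form much of the glycocalyx, the coat that faces the blood, and around mesangial cells they are part of the matrix.

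Levels are FPKM, which scales reads to the length of the gene and to 1000000 reads of the library, so they may be compared between genes as far as the gene length is right. Library totals were 9141422, 10427635 and 10976563 reads in aliquots 1, 2 and 3, and whole read numbers behind each value were recovered from the table. A gene was called detected when it reached 1 FPKM in every aliquot. The label of the pool was checked on marker genes not used to choose the wells. All 10 mesangial markers were detected, with summed levels of 6295 to 6356 FPKM over the aliquots, and 8 of 10 endothelial markers, with 2479 to 2529 FPKM, while the endothelial tight junction gene Cldn5 was listed at 0. Podocyte markers, of the epithelial cell type that was not pooled, were detected for 6 of 10 genes, with summed levels of 159.7 to 172 FPKM and none of the 10 listed at 0 in every aliquot. Markers of parietal epithelium, proximal tubule, distal nephron and macrophages were detected for 0 of 19 genes. Smooth muscle and renin cell markers were detected for 4 of 5 genes, with summed levels of 148 to 161 FPKM and Cnn1 listed at 0. Fibroblast markers were detected for 1 of 5, Pdgfra, with 47.3 to 49.6 FPKM, and the other 4 (Lum, Dcn, Col3a1 and Col1a1) were listed at 0. The part of these other cells in the levels that follow was not tested, and which pooled cell type made a transcript cannot be told from a mixture.

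Of the 58 genes 25 were detected, 8 had some reads but stayed below 1 FPKM, and 25 were listed at 0 in every aliquot. The detected share was 43.1%, beside 36.4% of the 21303 protein-coding genes in the table and 21.7% of all rows. The share listed at 0 was also 43.1%, beside 54.6% of protein-coding genes. So the detected share lay above that of protein-coding genes and the share listed at 0 below it. At a limit of 5 FPKM in every aliquot the detected shares were 29.3% of members and 29.1% of protein-coding genes. None of these differences was tested. Detected genes ran from 1.11 FPKM for Gpc4 to 440.01 FPKM for Sdc4 with a median of 10.3 FPKM and rested on 90 to 22362 reads. The 8 low genes rested on 1 to 25 reads in all. No gene lay between the highest low value, 0.331 FPKM for B3gat3, and the lowest detected one, so the calls were the same with a limit of 0.5 FPKM. In a bulk pool, fewer cells with a transcript and less of it per cell cannot be told apart.

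**Figure D1:**
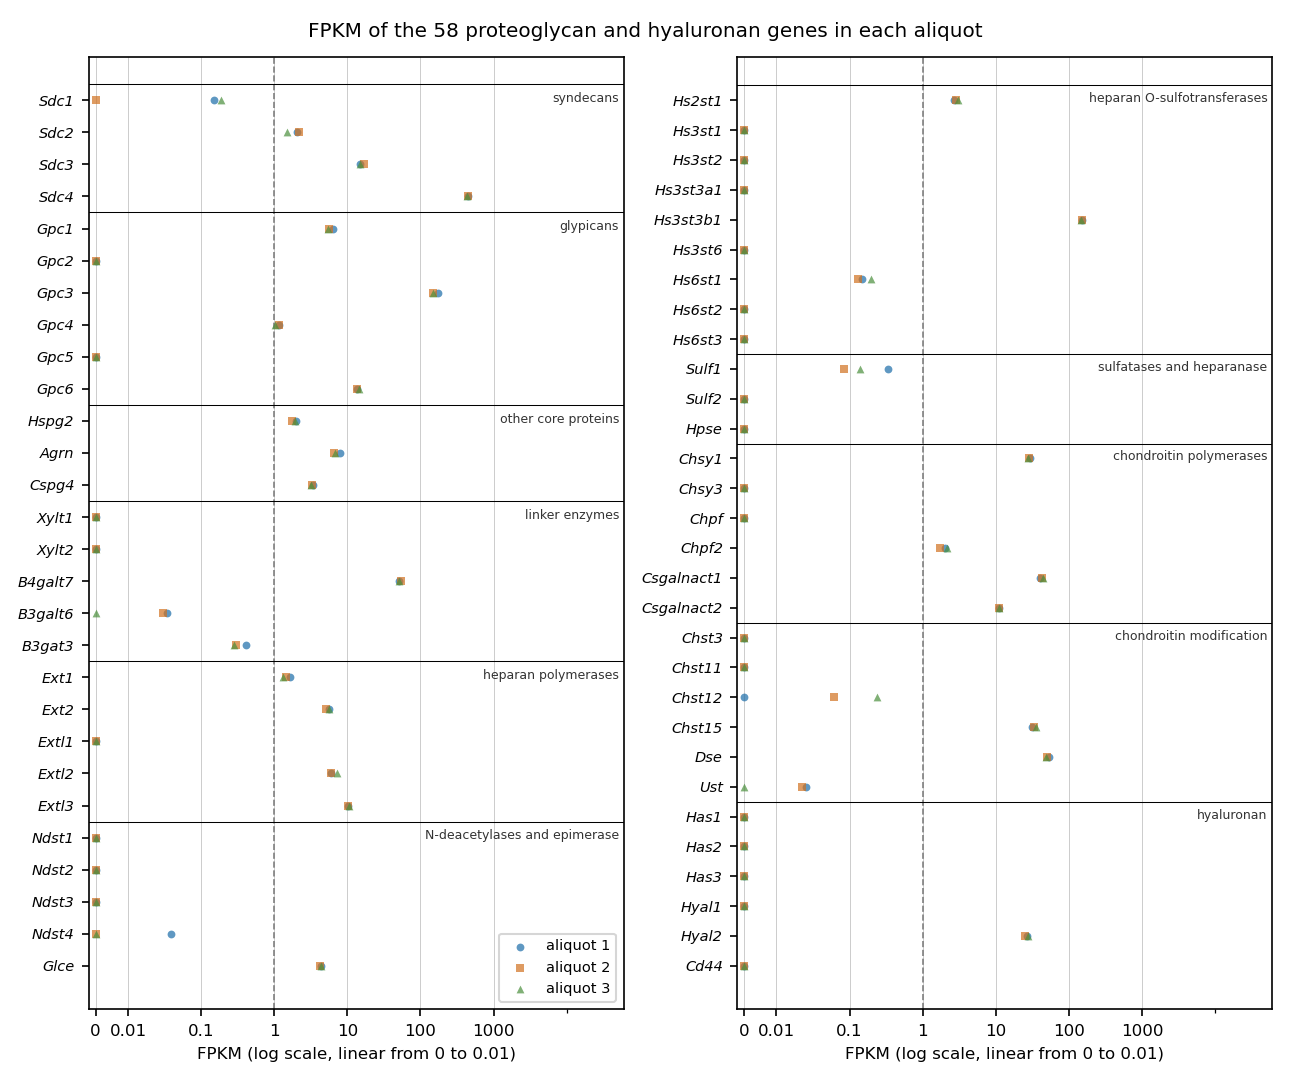
Level of each of the 58 genes (rows, grouped by role) in FPKM on a log axis that is linear between 0 and 0.01, with 1 point per aliquot and a dashed line at the detection limit of 1 FPKM. Sdc4, Gpc3 and Hs3st3b1 stand apart from the others above 100 FPKM, and 25 genes have all their points at 0.

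Sequences around the RefSeq start sites of 4 genes are shown, as those of the genes described most fully: the highest core protein gene (Sdc4), the core protein gene that varied between aliquots (Gpc3), the highest modifying enzyme (Hs3st3b1) and its close relative on the same chromosome, which was listed at 0 (Hs3st3a1). Each window runs from 250 bases before the RefSeq start site to 30 bases after it, on GRCm38.p6, 5′ to 3′ on the gene's strand. Capitals mark GGGCGG, the core of a GC box, or its reverse complement CCGCCC. The windows are chr2:164443159-164443438 (minus strand), chrX:52613945-52614224 (minus), chr11:63922255-63922534 (minus) and chr11:64435082-64435361 (plus). The Sdc4 window lies inside the gene as GENCODE annotates it, whose 5′ end is farther out.
Sdc4: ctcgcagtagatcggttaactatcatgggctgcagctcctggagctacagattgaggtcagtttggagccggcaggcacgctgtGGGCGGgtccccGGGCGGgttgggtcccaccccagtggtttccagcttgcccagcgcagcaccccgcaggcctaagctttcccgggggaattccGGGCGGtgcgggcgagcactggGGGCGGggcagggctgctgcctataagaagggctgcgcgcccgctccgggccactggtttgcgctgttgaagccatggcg
Gpc3: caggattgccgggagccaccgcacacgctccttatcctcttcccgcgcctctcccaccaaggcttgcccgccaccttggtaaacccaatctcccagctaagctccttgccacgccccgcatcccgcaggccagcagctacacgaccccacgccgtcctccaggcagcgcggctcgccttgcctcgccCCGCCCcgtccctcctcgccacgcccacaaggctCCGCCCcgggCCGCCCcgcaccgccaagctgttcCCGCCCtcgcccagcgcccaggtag
Hs3st3b1: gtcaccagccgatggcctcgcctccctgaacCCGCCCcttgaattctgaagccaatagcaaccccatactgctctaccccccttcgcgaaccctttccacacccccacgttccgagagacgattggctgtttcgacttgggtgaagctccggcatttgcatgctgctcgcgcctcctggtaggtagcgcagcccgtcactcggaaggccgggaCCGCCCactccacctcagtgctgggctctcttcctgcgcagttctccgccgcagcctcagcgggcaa
Hs3st3a1: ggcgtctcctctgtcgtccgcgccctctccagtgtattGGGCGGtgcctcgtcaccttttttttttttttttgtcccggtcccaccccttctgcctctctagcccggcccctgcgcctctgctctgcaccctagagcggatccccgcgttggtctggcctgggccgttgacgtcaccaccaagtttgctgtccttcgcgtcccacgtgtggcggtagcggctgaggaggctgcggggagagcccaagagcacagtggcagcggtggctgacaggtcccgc
The hexamer occurred 4 times in the windows of Sdc4 and of Gpc3, 2 times in that of Hs3st3b1 and 1 time in that of Hs3st3a1, and the windows held 21, 28, 21 and 22 CG dinucleotides in that order. TATAAA, searched on both strands and sharing no bases with the hexamer, was in none of the 4. RefSeq windows were found for 44 of the 58 genes. GGGCGG on either strand was in 33 of the 44 (75.0%), beside 47.4% of 16209 protein-coding genes of the table and 34.9% of all 27025 promoters. Many of the protein-coding genes, 8549, were listed at 0. Among detected genes the share was 84.2% of members beside 65.3% of protein-coding genes. Among low genes it was 66.7% beside 62.0%, and among those listed at 0 it was 68.4% beside 32.0%. The windows also differed in base composition. Their median content of G and C was 66.1% for members beside 56.8% for protein-coding genes. Among detected genes it was 66.1% beside 61.1%, and among those listed at 0 it was 64.6% beside 51.8%. The part of base composition in the hexamer shares was not tested. Split by level, the median number of CG dinucleotides was 21 for the 19 detected members and 18 for the 19 members listed at 0. Over protein-coding genes the same medians were 20 for detected genes and 5 for those listed at 0. These are counts of letters and say nothing of what binds there.

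Syndecans span the cell membrane and carry mainly heparan sulfate. Sdc4 (ENSMUSG00000017009, chr2:164424247-164443887, minus strand, GRCm38), the syndecan of focal adhesions, had 441, 444 and 436 FPKM in aliquots 1, 2 and 3. It was the most abundant of the 58 genes and ranked 175 of the 8537 detected genes. Sdc3 had 15.0, 16.7 and 15.1 FPKM, and Sdc2 2.05, 2.16 and 1.52 FPKM. Sdc1, the syndecan typical of epithelia and plasma cells, had 2, 0 and 3 reads, or 0.150, 0 and 0.187 FPKM. Sdc4 held 96.2% ± 0.194 of the summed syndecan FPKM, and the ranges of Sdc4, Sdc3, Sdc2 and Sdc1 did not overlap.

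Glypicans are tethered to the outer membrane by a lipid anchor and bind Hedgehog, Wnt and BMP ligands. Gpc3 (ENSMUSG00000055653, chrX:52272426-52613950, minus strand) had 172, 150.4 and 149.2 FPKM in aliquots 1, 2 and 3, and held 88.4% ± 0.682 of the summed glypican level. Gpc6 followed with 13.5, 13.4 and 14.3 FPKM, then Gpc1 with 6.39, 5.55 and 5.42 FPKM. Gpc4 was just above the limit with 1.16, 1.16 and 1.03 FPKM from 90 reads. Gpc2 and Gpc5 were listed at 0. Of the exonic bases of Gpc2, 55.6% overlap another annotated gene on the same strand, where reads can go uncounted as ambiguous.

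The remaining core proteins were all detected at low levels. Agrin (Agrn), a heparan sulfate proteoglycan of the glomerular basement membrane, had 7.93, 6.50 and 6.77 FPKM. Cspg4, the chondroitin sulfate proteoglycan known as NG2 that marks pericytes and other mural cells, had 3.44, 3.32 and 3.15 FPKM. Perlecan (Hspg2), the basement membrane proteoglycan of endothelium and mesangium, had 1.98, 1.75 and 1.92 FPKM from 559 reads. Perlecan and agrin did not overlap, with a log2 ratio of perlecan to agrin, each plus 1 FPKM, of -1.48 ± 0.0917.

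Every heparan or chondroitin sulfate chain starts with a linker built in steps. Of the 5 genes among the 58 whose enzymes add the linker sugars, only that of the second step was detected. B4galt7, which adds the first galactose, had 50.5, 54.5 and 50.3 FPKM from 2510 reads and had rank 4 among the 58 by deposited FPKM. The xylosyltransferases Xylt1 and Xylt2, which open the linker on the core protein, were both listed at 0 in every aliquot. B3galt6, which adds the next galactose, had 1, 1 and 0 reads, and B3gat3, which completes the linker with glucuronic acid, had 6, 5 and 5 reads or 0.410, 0.299 and 0.285 FPKM. Neither xylosyltransferase gene has an exonic overlap with another gene in GENCODE M21, and why both were at 0 was not tested.

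The heparan sulfate polymerases were detected for 4 of 5 genes. Extl3, which adds the first sugar that commits a chain to heparan sulfate, led with 10.2, 10.3 and 10.4 FPKM. Extl2, a related transferase that can end chain growth, had 6.00, 5.89 and 7.23 FPKM. The polymerase itself is a complex of Ext1 and Ext2, for which 1.65, 1.44 and 1.30 FPKM and 5.56, 5.08 and 5.53 FPKM were measured. The log2 ratio of Ext1 to Ext2, each plus 1 FPKM, was -1.38 ± 0.110 and negative in all 3 aliquots. With lengths of the longest annotated transcripts the ratio was -1.01 ± 0.0702, and Ext1 itself stood at 0.521 FPKM, below the limit. Extl1 was listed at 0.

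Modification of heparan sulfate begins with the N-deacetylase and N-sulfotransferase enzymes, and none of their 4 genes was detected. Ndst1, the form widespread in most tissues, was listed at 0, as were Ndst2 and Ndst3, and Ndst4 rested on 1 read in aliquot 1. Glce, the epimerase that turns glucuronic into iduronic acid in N-sulfated stretches, was detected with 4.42, 4.23 and 4.31 FPKM. Its partner enzyme Hs2st1, which sulfates that iduronic acid, had 2.64, 2.89 and 3.08 FPKM.

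Among the 3-O-sulfotransferases, which add the rarest sulfate of the chain, a single gene stood far above the rest. Hs3st3b1 (ENSMUSG00000070407, chr11:63885792-63922290, minus strand) had 149.7, 151 and 146.7 FPKM from 6720, 7736 and 7906 reads. It held 98.0% ± 0.180 of the summed level of the 9 O-sulfotransferase genes and ranked 763 of 8537 detected genes. Its range overlapped that of Gpc3, so their order is not resolved. Hs3st1, the form known for the antithrombin site, was listed at 0, as were Hs3st2, Hs3st3a1 and Hs3st6. Hs3st3a1 (ENSMUSG00000047759, chr11:64435332-64522841, plus strand) encodes a sulfotransferase domain almost identical to that of Hs3st3b1. The transcripts share 416 stretches of 50 bases, 10.7% of those of Hs3st3a1 and 8.56% of those of Hs3st3b1, so most of each transcript is distinct. Reads from the shared stretches cannot be assigned to either gene, and 32.9% of the exonic bases of Hs3st3a1 also overlap a gene on the other strand. The 6-O-sulfotransferase Hs6st1 had 5, 5 and 8 reads, or 0.147, 0.129 and 0.196 FPKM, and Hs6st2 and Hs6st3 were listed at 0.

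Enzymes that edit or cut finished heparan sulfate were not detected for any of 3 genes. Sulf1, an extracellular sulfatase that removes 6-O-sulfate, had 14, 4 and 7 reads, or 0.334, 0.0836 and 0.139 FPKM. Its relative Sulf2 and heparanase (Hpse), which cleaves the chain, were listed at 0. Counts by role depend on the limit set. At 5 FPKM in every aliquot 1 of 3 remaining core proteins and 1 of 9 O-sulfotransferases were left, and with any value above 0 counted, 3 of 5 linker enzymes and 1 of 3 sulfatases and heparanase were included.

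**Figure D2:**
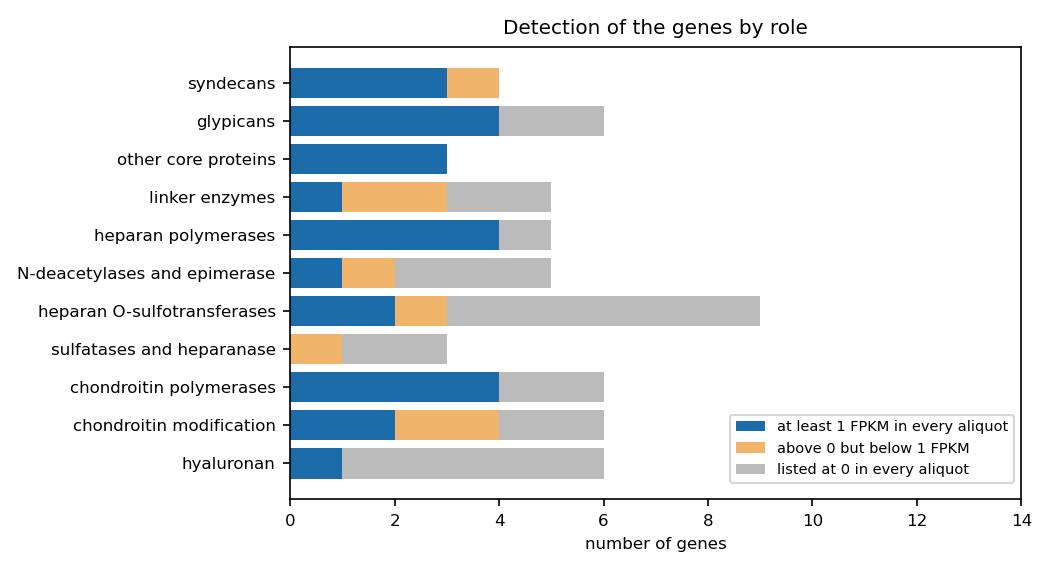
Number of genes in each role (bars from 0) that were detected, had some reads below 1 FPKM, or were listed at 0 in every aliquot. All 3 remaining core proteins and 4 of 5 heparan polymerases were detected, against 1 of 5 linker enzymes, 2 of 9 O-sulfotransferases and 0 of 3 sulfatases and heparanase.

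The chondroitin branch was detected for 4 of 6 polymerase genes at higher levels than the heparan polymerases, with summed levels of 82.0 to 84.8 FPKM beside 22.7 to 24.5 FPKM. Csgalnact1, which adds the first sugar that commits a chain to chondroitin sulfate, had 40.1, 43.4 and 44.2 FPKM, and its relative Csgalnact2 had 11.0, 11.1 and 10.9 FPKM. Chsy1, a chain polymerase, had 28.9, 28.6 and 27.5 FPKM from 3602 reads. Chpf2, a polymerase partner, had 1.996, 1.750 and 2.143 FPKM, and 44.1% of its exonic bases overlap other genes, nearly all on the other strand. Chsy3 and Chpf were listed at 0. The order of Csgalnact1 and Chsy1 depends on length: scaled to the longest transcripts, Chsy1 had 28.3 ± 0.726 FPKM and Csgalnact1 16.8 ± 0.861 FPKM.

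Chondroitin modification was detected for 2 of 6 genes, and both were among the higher ones. Dse, the epimerase that converts chondroitin to dermatan sulfate, had 53.1, 50.9 and 48.0 FPKM from 6519 reads and overlapped B4galt7 in deposited FPKM. Chst15, which adds a further sulfate to chondroitin that is already sulfated, had 31.3, 33.2 and 35.3 FPKM. The 4-O-sulfotransferase Chst11 and the 6-O-sulfotransferase Chst3 were listed at 0. Chst12, another 4-O-sulfotransferase, had 0, 1 and 4 reads, and the uronyl sulfotransferase Ust 1, 1 and 0 reads. Neither Chst11 nor Chst3 has an exonic overlap with another gene in GENCODE M21, and why both were at 0 was not tested.

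Of the hyaluronan genes only Hyal2 was detected. Hyal2, a membrane-anchored hyaluronidase, had 26.9, 25.2 and 27.7 FPKM from 1538 reads and overlapped Chsy1 in deposited FPKM. The synthases Has1, Has2 and Has3 and the hyaluronan receptor Cd44 were listed at 0 in every aliquot. Hyal1, the lysosomal hyaluronidase, was listed at 0, and 51.9% of its exonic bases overlap other genes on the same strand.

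A value of 0 is reported only as listed. Genes that most cells use are also at 0 in the table, among them Slc35b2, a Golgi carrier of the sulfate donor on the lists below. Of the 25 members listed at 0, 8 share some exonic bases with another gene and 2, Gpc2 and Hyal1, share more than 50%. Of the 25 detected members 7 share some. The other 17 listed at 0 have no overlap in GENCODE M21, possibly another release than the authors used. The cause of the zeros was not tested.

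Members that lie near each other on a chromosome differed widely in level in 4 cases, which were picked after their values were seen. Gpc3 and Gpc4 are 107 kb apart on chromosome X, with 157 ± 13.0 and 1.11 ± 0.0725 FPKM. Gpc6 and Gpc5 are 400.1 kb apart on chromosome 14, with 13.7 ± 0.512 FPKM and 0 as listed. Hs3st3b1 and Hs3st3a1 are 513 kb apart on chromosome 11, with 149.1 ± 2.25 FPKM and 0 as listed, and Hyal2 and Hyal1 are 4.15 kb apart on chromosome 9, with 26.6 ± 1.25 FPKM and 0 as listed. The ranges of Gpc3 and Gpc4 did not overlap. In the other cases the lower gene was at 0, so overlap was not possible. No count was made over all members that lie near each other.

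Levels were also compared within pairs of genes of the same role, chosen with earlier results of these data known. Of 15 pairs, 5 had both genes detected, and in all 5 the log2 ratio was at least 1 in size in every aliquot, as it was in 4 of the 5 with lengths of the longest transcripts. The largest was Sdc2 against Sdc4 with -7.25 ± 0.165. Csgalnact1 against Csgalnact2 had 1.85 ± 0.0743, or 1.19 ± 0.0717 with those lengths, and Gpc1 against Gpc4 had 1.68 ± 0.0895. The share of other pairs of detected genes that differ as much was not computed, so the count says nothing particular of these pairs. No test was run on these ratios, since 3 aliquots of 1 pool are technical. For pairs with a gene at 0 the ratio depends on the added 1 FPKM and is not given.

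**Figure D3:**
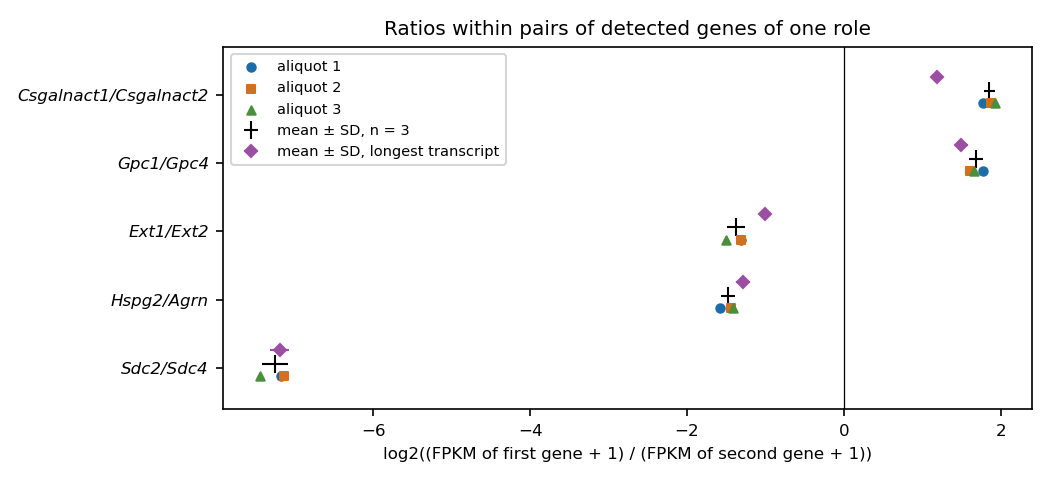
Log2 ratios of FPKM + 1 within the 5 pairs of detected genes of one role, with 1 point per aliquot, the mean ± SD over 3 aliquots in black, and the mean ± SD with longest transcripts as gene length in purple. Sdc2 against Sdc4 lies at -7.25 on this scale, and the direction of all 5 pairs is the same with either length.

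Of the 24 neighbouring pairs in the order of the 25 detected genes by deposited FPKM, 16 had ranges that did not overlap and 8 overlapped. The overlapping neighbours were Gpc3 and Hs3st3b1, B4galt7 and Dse, Chsy1 and Hyal2, the run of Agrn, Extl2, Gpc1 and Ext2, and the run of Chpf2, Sdc2 and Hspg2. The order holds for the authors' gene lengths: with lengths of the longest transcripts, 7 of the 16 steps turned round without overlap and 9 kept their direction. Sdc3 then stood at 5.29 ± 0.315 FPKM, below Gpc6 with 13.9 ± 0.519 FPKM, and Csgalnact2 at 6.80 ± 0.0597 FPKM, below Extl3 with 10.2 ± 0.117 FPKM. Of the 8 overlapping pairs, 1 overlapped with those lengths too, 4 came apart in the same order and 3 in reverse. Dse then had 48.8 ± 2.49 FPKM, above B4galt7 with 37.4 ± 1.73 FPKM. The coefficient of variation of the detected genes ranged from 0.878% for Csgalnact2 to 18.1% for Sdc2, with a median of 5.12%. Sdc2 rested on 108 reads, for which counting alone gives 16.7%.

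Whether aliquots differed by more than counting error was tested on the recovered reads (chi-square test), adjusted by the Benjamini-Hochberg method over all 9120 genes with at least 30 reads. It called 1.09% of those genes and 1 of the 25 members tested, Gpc3 (adjusted chi-square p = 2.8e-07). Gpc3 had 3224, 3211 and 3353 reads in aliquots 1, 2 and 3, and its FPKM in aliquot 1 lay above both others, which were nearly equal. Its coefficient of variation was 8.25%, beside 1.75% from counting alone. Without aliquot 1 the adjusted chi-square p of Gpc3 was 0.97 and no member was called. Over all rows, 66 of the 99 called genes were higher in aliquot 1, and the part of that library in the Gpc3 result was not tested. The next member, Dse, had an adjusted chi-square p of 0.14, with 53.1 FPKM in aliquot 1 and 48.0 FPKM in aliquot 3. Reads of amplified cDNA are not independent molecules, so the test covers counting error only.

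**Figure D4:**
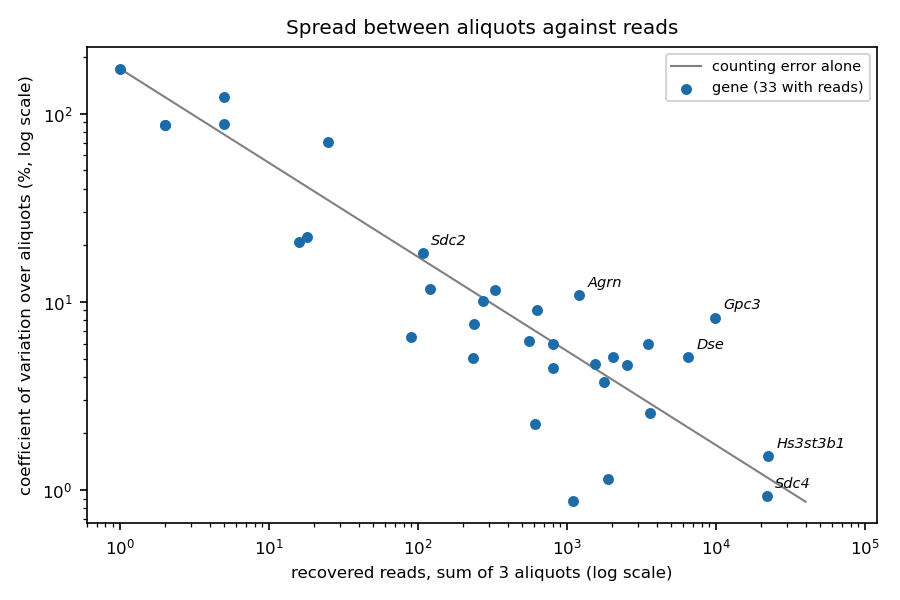
Coefficient of variation over the 3 aliquots (log axis, percent) against recovered reads (log axis) for the 33 genes with reads, with the line that counting error alone would give. Gpc3, with 8.25% at 9788 reads, lies farthest above the line among the labelled genes, and Sdc4 lies close to it with 0.930% at 21875 reads.

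A further 63 genes of the pathway were listed by function, of which 30 were detected, 2 were low and 31 listed at 0. Supply of activated sugars and sulfate was detected for 10 of 16 genes. Ugdh, which makes the glucuronic acid donor, had 40.0, 44.2 and 42.2 FPKM, Slc35d1, a carrier of sugar donors into the endoplasmic reticulum, 28.6, 29.8 and 28.4 FPKM, and Bpnt2 (named Impad1 in the annotation used), a phosphatase that clears the spent sulfate donor, 24.1, 23.2 and 22.1 FPKM. Papss1, a synthase of the sulfate donor, had 22.6 ± 0.216 FPKM while its relative Papss2 was listed at 0. The carriers of that donor into the Golgi were low or at 0: Slc35b3 had 1.08, 0.712 and 1.22 FPKM and Slc35b2 was listed at 0. Slc35d2 and Pxylp1, a phosphatase of the linker, were also listed at 0, and the linker kinase Fam20b had 7.59 ± 0.540 FPKM.

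Among core proteins outside the 58 genes, the highest were neuropilin 1 (Nrp1), a receptor that can carry such a chain, with 742, 749 and 746 FPKM, and biglycan (Bgn), a small matrix proteoglycan with chondroitin or dermatan sulfate, with 592, 614 and 636 FPKM. Serglycin (Srgn), an intracellular proteoglycan, had 498, 504 and 482 FPKM. In all 7 of 16 such genes were detected, and Dcn, Vcan, Acan, Ncan, Bcan, Spock1, Spock3 and Esm1 were listed at 0. Biglycan was lowest in aliquot 1 and differed between aliquots beyond counting error (adjusted chi-square p = 0.0028). Without aliquot 1 this p was 0.53, without aliquot 3 it was 0.32, and without aliquot 2 it was 0.00051.

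Of 10 further enzymes 3 were detected. Cemip2, a cell surface protein linked to hyaluronan breakdown, had 51.2, 46.6 and 46.7 FPKM and was called as different between aliquots (adjusted chi-square p = 0.018), but without aliquot 1 this p was 0.99. Dsel, a relative of Dse, had 7.44 ± 0.236 FPKM and Chst7, a chondroitin sulfotransferase, 1.70 ± 0.147 FPKM. Hs3st4, Hs3st5, Hpse2, Chst13, Chst14, Hyal3 and Cemip were listed at 0. Lysosomal enzymes of chain breakdown were detected for 9 of 13 genes, led by Hexa (45.8 ± 2.41 FPKM), beta-glucuronidase (Gusb, 17.7 ± 1.10 FPKM) and the sulfatase activator Sumf1 (15.7 ± 1.18 FPKM), with Sgsh, Arsb and Galns among those listed at 0. Of 8 genes listed under hyaluronan binding the scavenger receptor Stab1 was detected (11.9, 12.2 and 10.7 FPKM). Whether Stab1 itself binds hyaluronan was not tested. Hmmr, Lyve1, Stab2, Hapln1, Hapln3, Tnfaip6 and Itih5 were listed at 0.

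**Figure D5:**
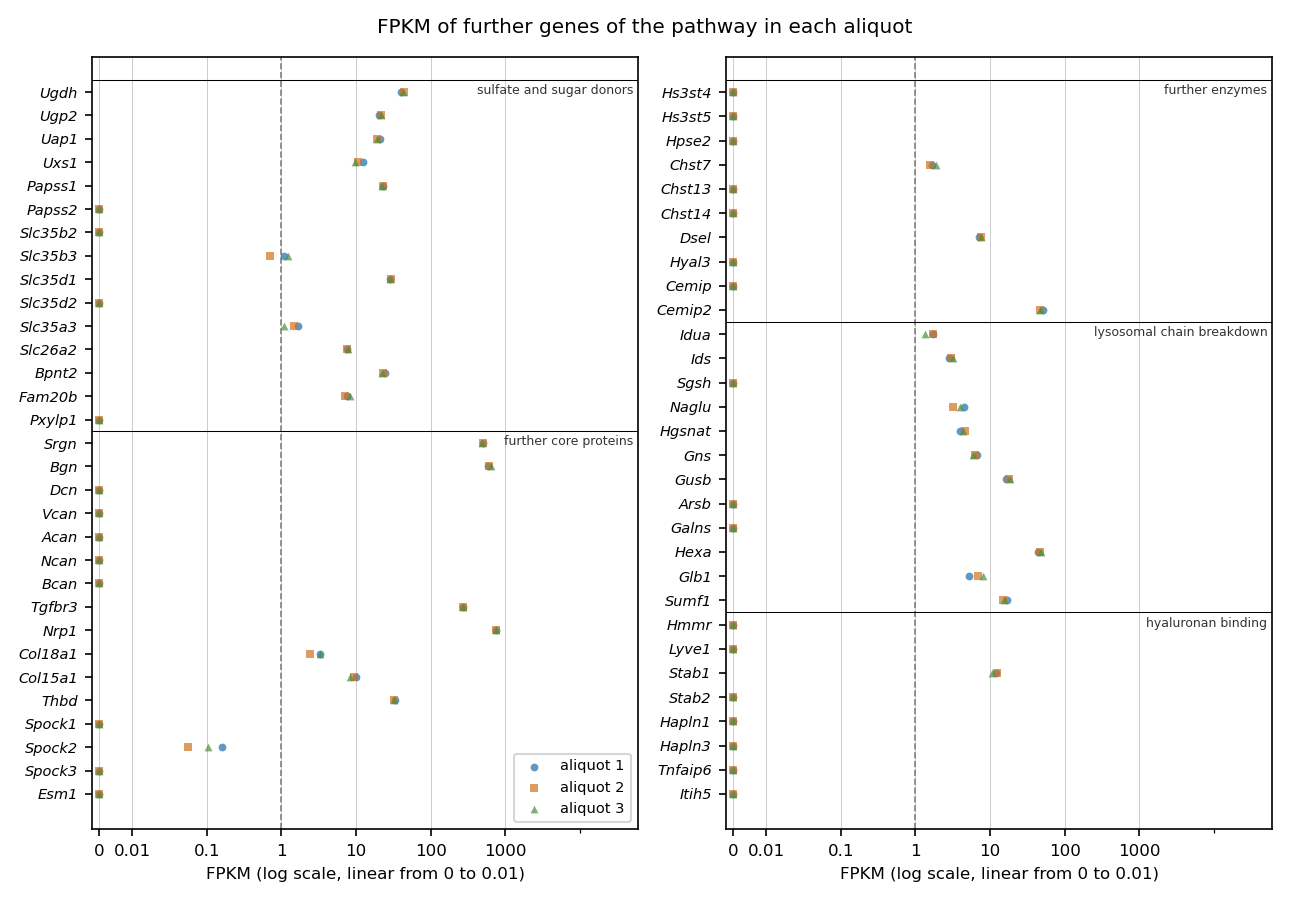
Level in FPKM of the further genes of the pathway in each aliquot, without a few that are not reported here, on a log axis that is linear between 0 and 0.01, grouped by function, with a dashed line at 1 FPKM. Nrp1, Bgn, Srgn and Tgfbr3 lie above 100 FPKM, and most genes listed under hyaluronan binding and most further enzymes have all points at 0.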

How the data were processed

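RNA sequencing libraries, 1 per aliquot of a pooled cDNA, were analysed. The authors deposited FPKM for each gene and aliquot. Per the submitters' processing notes, TopHat2 2.0.12, HTSeq 0.6.1 and GRCm38 were used; how gene length was defined is not given in the sources used here. A name table gave symbols for 37607 of 39179 Ensembl identifiers. Coordinates and transcript lengths are those of GENCODE M21 (GRCm38), possibly another release than the one the authors counted.

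Library totals were the most frequent total that 1 read would imply among genes below 0.5 FPKM, given their mean transcript length. For each of 11142 genes above 0, the smallest length giving whole reads in all aliquots (within 0.0001) was taken, or a multiple of it near the mean transcript length (336 genes). Reads can be too low by a common factor. Implied lengths were within 1 base of the mean for 13 of 33 members with reads.

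The chi-square test (scipy 1.17.1) used genes with at least 30 reads and a Benjamini-Hochberg threshold of 0.05. Log2 ratios were taken after adding 1 FPKM, so those of low genes are understated. For RefSeq promoters the first entry per symbol was used. All 58 members were described, with up to 3 highest and those listed at 0 of each further list; other genes are named where a sentence turns on them. A few listed genes are counted but not reported or drawn here. Members, lists and pairs were chosen with earlier results of these data known. Alternatives were other detection limits, lengths, read minimums, scalings and pseudocounts, and leaving out each aliquot; the order by other lengths and the Bgn and Cemip2 calls without each aliquot were added after seeing the data.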

Additional observations from a re-analysis of the deposited data

How the results depend on the processing

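Detection of the 58 genes gave 25 in the main setting and in each set of 2 aliquots, 17 at 5 FPKM, 23 with lengths of the longest transcripts (Sdc2 and Ext1 lost) and 33 when any value above 0 counted. A minimum of 10 reads in every aliquot, chosen after seeing the data, also gave 25. The share of protein-coding genes moved with these limits too. At 5 FPKM it was 29.3% of members beside 29.1% of protein-coding genes, and with longest transcripts 39.7% beside 34.7%. For any value above 0 it was 56.9% beside 45.4%, and with at least 10 reads 43.1% beside 38.6%. By role, the limit of 5 FPKM left 0 of 5 N-deacetylases and epimerase, and counting any value above 0 gave 2 of these 5 and 4 of 6 chondroitin modification genes. Leaving out each aliquot gave 0 to 1 members beyond counting error. Without aliquot 1 the chi-square test called 0 of 25 members and 2 of 8847 genes in all. Its unadjusted p was then under 0.05 for 1 of the 25 members and for 675 of the 8847 genes. Without aliquot 2 or 3 the test called Gpc3. Read minimums of 10 and 100 and a median ratio scaling each called Gpc3 alone. The adjusted chi-square p of Gpc3 over these alternatives ranged from 3.3e-08 to 0.97. Of 15 pairs, 9 had a log2 ratio of at least 1 in size in every aliquot, 8 to 10 under other lengths or a pseudocount of 0.1 FPKM, and 5 when only the 5 pairs with both genes detected were used, which follows from having fewer pairs. None of the 5 pairs with both genes detected changed sign. In every other pair at least 1 gene was listed at 0, so the sign could not change. With longest transcripts Csgalnact1 held 31.4% of the chondroitin polymerase level instead of 50.7%, and Extl3 held 62.5% of the heparan polymerase level instead of 43.8%. No paired analysis was possible because all 3 aliquots belong to 1 group. Depth limits the 8 genes with 1 to 25 reads, in whose order neighbours overlapped in range, and without another mouse or pool the values describe this pool only.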
